A study of Mus musculus with 48 samples.

Results

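The regions described here are 746 stretches of chromatin that were more open in terminally exhausted than in progenitor T cells of tumours from young hosts, out of 53868 regions measured. A region was taken when its mean over all 48 libraries was at least 20 normalized reads and its young Tterm minus Tprog difference, averaged over 3 guides of equal weight, was at least 1.5 on a scale of log2(value + 1). Of all regions, 46943 passed the minimum on the mean. The members were thus selected on the measured values of young Tterm (9 libraries) and young Tprog (6 libraries), whose values are given as a description only, and every contrast tested compares other libraries, although the estimate of spread between replicates is shared over all 48. The aged libraries entered the choice only through the mean over 48, so a region that stayed weak in every young library had to be open somewhere in aged cells to pass.

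The assay was ATAC-seq, in which a transposase cuts accessible DNA. The cells were CD45.1 CD8 T cells of the OT-1 strain, whose receptor recognises an ovalbumin peptide, from donors with Cas9. They were recovered from B16-OVA melanoma tumours on day 15, having been transferred 1 day before the tumour cells were given. Every cell carried a lentiviral guide and its ametrine reporter, and the guide was Zfp219 (a zinc finger gene), Dusp5 (a phosphatase acting on ERK) or the control called OTC, whose meaning the labels do not give. Hosts were aged or young, read from the letters A and Y in the titles. Sorting used a pair of surface proteins. Tprog cells had Slamf6 without Tim-3, the effector-like Ttran cells had both, Tterm cells had Tim-3 but no Slamf6, and Ttad cells were negative for each. The 24 aged libraries comprise 2 for each guide and state. The 24 young libraries comprise 2 for each guide in Tprog and 3 for each guide in Ttran and in Tterm, and no young Ttad library was analysed here. Each library came from 5000 to 50000 cells pooled from several mice, and which mice went into which pool is not stated, so p-values measure the spread between these pools.

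Exhausted CD8 T cells in tumours lie on a path from self-renewing progenitors, which keep Slamf6 and the factor TCF1, through an intermediate effector-like state to terminal cells that carry Tim-3 and other inhibitory receptors. Along the path, enhancers of memory genes close and enhancers of effector and exhaustion genes open. Open chromatin marks where factors can bind and does not by itself measure transcription. In bulk libraries, fewer cells with an open site and less opening per cell cannot be told apart.

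The members had a mean of 20.1 to 694 normalized reads over 48 libraries, with a median of 49.2 against 126 for all regions past the minimum on the mean. Their young difference ran from the threshold of 1.5 to 3.53 with a median of 1.78. At the edge of the rule, regions of Ccdc177 and Dnah7b were just inside the difference threshold and regions of Gm45988 and Tiam1 just outside, all within rounding of 1.5. At the edge of the mean, regions of Foxl1 (20.1) and A1cf (20.2) were just inside, and regions of Ltf (19.8) and Vps13b (20 after rounding) just outside.

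Promoter DNA is shown for the member regions that lie over granzyme start sites, which hold the highest aged difference of any member, and for Cd244a and Adgrg1. Of 729 members on chromosomes covered by the RefSeq promoter table (build GRCm38.p6), 31 overlapped a window from 250 bases before to 50 bases after a start site. The 4 granzyme sequences carry a RUNX core motif (TGTGGT, either strand) in capitals, and the Cd244a and Adgrg1 sequences an AP-1 motif (TGANTCA) in capitals. Each is the 250 bases before the start site, written 5′ to 3′ on the gene's strand and lying whole inside the member region.
Gzmf upstream, chr14:56211408-56211657, minus strand: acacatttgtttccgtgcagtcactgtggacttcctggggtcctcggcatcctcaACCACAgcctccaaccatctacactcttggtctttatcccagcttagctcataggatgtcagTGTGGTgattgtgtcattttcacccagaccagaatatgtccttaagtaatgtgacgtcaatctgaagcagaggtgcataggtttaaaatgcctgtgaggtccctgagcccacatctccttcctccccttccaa
Gzmd upstream, chr14:56132594-56132843, minus strand: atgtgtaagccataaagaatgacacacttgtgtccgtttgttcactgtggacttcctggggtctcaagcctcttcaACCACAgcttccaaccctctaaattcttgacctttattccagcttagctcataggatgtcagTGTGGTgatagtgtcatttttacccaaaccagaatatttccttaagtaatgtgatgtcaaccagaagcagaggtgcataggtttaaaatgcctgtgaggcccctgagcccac
Gzme upstream, chr14:56120626-56120875, minus strand: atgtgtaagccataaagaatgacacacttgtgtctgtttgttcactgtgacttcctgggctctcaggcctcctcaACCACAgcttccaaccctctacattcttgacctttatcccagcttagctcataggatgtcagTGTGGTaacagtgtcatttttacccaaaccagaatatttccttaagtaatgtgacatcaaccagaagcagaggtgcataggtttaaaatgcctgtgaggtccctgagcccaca
Gzmc upstream, chr14:56234658-56234907, minus strand: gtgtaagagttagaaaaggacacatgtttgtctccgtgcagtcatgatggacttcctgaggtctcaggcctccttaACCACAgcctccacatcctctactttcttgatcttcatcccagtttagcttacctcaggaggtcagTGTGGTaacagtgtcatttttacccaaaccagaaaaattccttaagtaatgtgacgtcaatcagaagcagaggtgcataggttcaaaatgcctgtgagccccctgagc
Cd244a upstream, chr1:171558943-171559192, plus strand: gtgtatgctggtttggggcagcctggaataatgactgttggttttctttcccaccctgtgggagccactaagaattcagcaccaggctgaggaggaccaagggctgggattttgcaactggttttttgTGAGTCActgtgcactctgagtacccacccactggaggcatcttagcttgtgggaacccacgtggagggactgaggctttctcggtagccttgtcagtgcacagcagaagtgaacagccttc
Adgrg1 upstream, chr8:94984149-94984398, plus strand: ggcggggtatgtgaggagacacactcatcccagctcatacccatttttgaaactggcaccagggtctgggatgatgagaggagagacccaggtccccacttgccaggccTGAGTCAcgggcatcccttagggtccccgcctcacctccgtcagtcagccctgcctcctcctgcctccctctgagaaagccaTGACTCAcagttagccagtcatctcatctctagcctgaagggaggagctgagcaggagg

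Each granzyme sequence held 2 RUNX cores, 1 on each strand. The Gzmd and Gzme windows were 95.6% identical over their aligned bases, and the pairs among Gzmc, Gzmd, Gzme and Gzmf ran from 86.0% to 95.6%. How the authors placed reads that fit several copies is not given in the sources used here, so the split of reads among these granzymes is uncertain. The Cd244a sequence held 1 AP-1 motif and the Adgrg1 sequence 2.

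In all, 10 motifs were searched on both strands in the 33 windows that the 31 members overlapped, as a description of short strings. The T-box core AGGTGTG was in 21.2% of member windows and in 5.84% of all 32851 windows. It was in 4.43% of the 13470 windows under a region past the minimum on the mean. RUNX TGTGGT was in 33.3%, 16.8% and 13% in the same order. AP-1 TGANTCA was in 15.2%, 7.81% and 5.09%, and the NR4A core AAGGTCA in 9.09%, 4.72% and 2.95%. ETS GGAAGT was in 24.2%, 23.8% and 28.4%, E-box CAGGTG in 15.2%, 20.2% and 18.1%, and the IRF motif in 3.03%, 3.44% and 2.99%. NFAT TGGAAA was in 12.1%, 21.4% and 16.3%, TCF/LEF CTTTGA in 9.09%, 16% and 11.5%, and the KLF/SP string GGGNGGG in 39.4%, 48.1% and 67.7%. For each of these the share among member windows was the smallest. With 33 windows, 1 window is 3.03% of the total, and the 4 granzyme copies alone supply 4 of the 11 RUNX windows.

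Reads in peaks ran from 5638413 to 29942755 per library with a median of 14691505, from 5638413 to 16159054 in aged and from 6589023 to 29942755 in young libraries. T cell genes were open at their start sites, with means of 1107 normalized reads at Cd3e, 702 at Cd3d and 715 at Cd8a. No peak lay over the start site windows of Lyz2, C1qb, Csf3r (myeloid), Cd79a, Pax5 (B cells), Ncr1 (NK cells), Tyr, Tyrp1, Dct (melanoma) or Foxp3 (regulatory T cells). Other genes of the same lists did have a start-site peak, with means over all libraries of 291 at Mitf (melanoma list), 549 at Eomes (NK list, also a factor of CD8 T cells), 784 at Zbtb7b (CD4 list) and 30.3 at Itgam (myeloid list). In a list of 213 regions of progenitor and memory genes, 105 were lower and 25 higher in aged Tterm than in aged Tprog. Over all regions 16.9% were called lower and 19% higher.

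The members rose together from progenitor to terminal cells in aged hosts, libraries whose contrast the rule did not use. Averaged over the 746 members, the aged OTC level on the log2(value + 1) scale was 4.53 ± 0.0183 (SD, n = 2) in Tprog, 5.70 ± 0.0223 (SD, n = 2) in Ttran and 6.07 ± 0.0463 (SD, n = 2) in Tterm. With the Zfp219 guide the same levels were 4.59, 5.64 and 6.06, and with the Dusp5 guide 4.36, 5.68 and 6.06. Ttad stood between Tprog and Ttran in each guide, at 5.18 for OTC, 5.38 for Zfp219 and 5.24 for Dusp5. The largest SD of these aged group means was 0.0614, for Zfp219 Tprog, so the libraries of different states did not overlap within a guide.

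**Figure D1:**
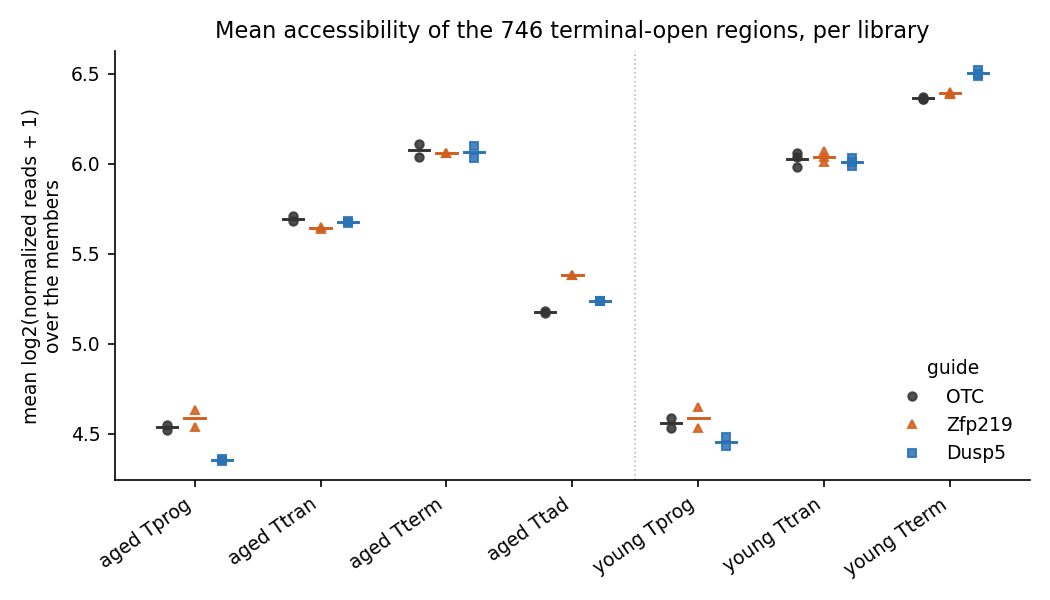
Mean log2(value + 1) over the 746 members in each of the 48 libraries, by sorted state, guide and host age; each point is 1 library and each short bar a group mean. In every guide and both ages Tprog is lowest and Tterm highest, with Ttran nearer to Tterm and aged Ttad between Tprog and Ttran. The young Tprog and Tterm points chose the members.

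A total of 706 of the 746 members were higher in aged Tterm than in aged Tprog, averaged over the 3 guides, and 0 were lower (limma, Benjamini-Hochberg adjusted p under 0.05 over all regions). Over all 53868 regions, 19% were called higher and 16.9% lower in this comparison, so the members' share of 94.6% stands far above the background. The median member differed by 1.54 (quartiles 1.18 and 1.93) and the median of all regions by -0.01. At an unadjusted p under 0.05 limma also found 0 members lower, with 712 higher, and edgeR on whole reads called 708 higher and 0 lower. The median member had 20.8 whole reads, before normalization, in aged Tprog and 67.8 in aged Tterm (median of the library medians).

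Each guide on its own showed the same direction. In OTC libraries 506 members were called higher in aged Tterm than in Tprog (67.8%, background 11.2%). With Zfp219 there were 506 (67.8%, background 10.4%) and with Dusp5 564 (75.6%, background 12.6%). In each single guide 0 members were called lower (background 8.88%, 8.38% and 10.3%) by limma and by edgeR, and at an unadjusted p under 0.05 limma had 1 lower for OTC, 1 for Zfp219 and 2 for Dusp5. A total of 386 members (51.7%, background 5.22%) were called in each of the 3 guides and 87 (11.7%, background 80.6%) in none. Every aged Tterm library lay above every aged Tprog library of its guide, in all 3 guides, at 590 members (79.1%, background 12.1%), and all 6 Tterm lay above all 6 Tprog libraries at 504 members (67.6%, background 7.86%).

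The size of the difference was on the whole smaller in aged than in young hosts. The aged difference was the smaller at 520 members and the larger at 226, while 400 members reached the 1.5 of the rule in aged cells, which 1.74% of all regions did, and 629 reached 1. This count is a description, because members were picked for a high young value. Across members the young and aged differences had a Pearson r of 0.479, a description over regions that share the same libraries.

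**Figure D2:**
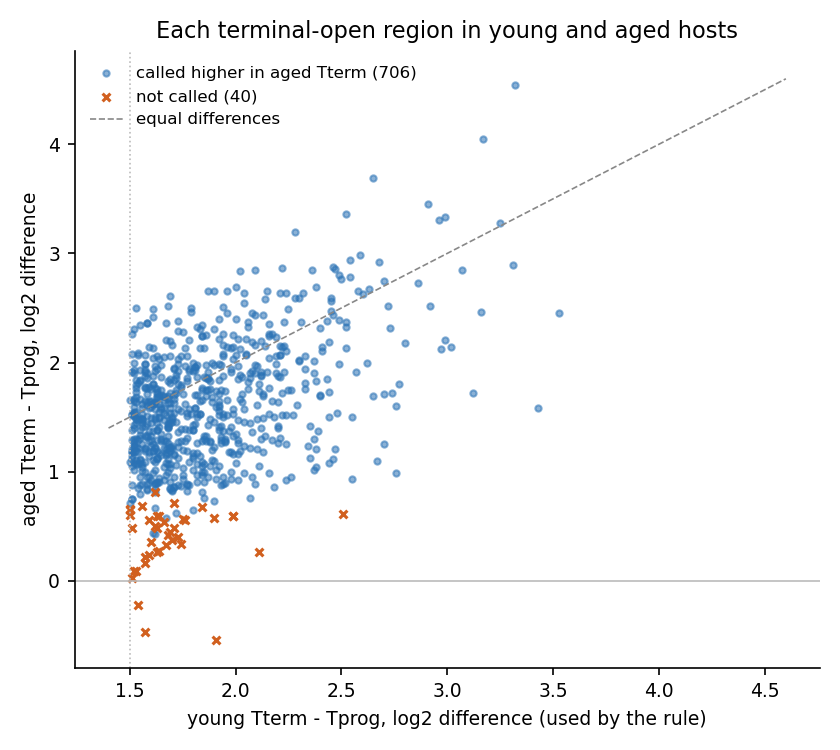
Young (x axis) against aged (y axis) Tterm minus Tprog difference in log2(value + 1), 1 point for each of the 746 members. Blue circles are the 706 members called higher in aged Tterm, orange crosses the 40 not called, and the dashed line marks equal differences. The young axis starts at the 1.5 of the rule, and 743 members lie above 0 on the aged axis.

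A total of 681 members had at least 1 read in every library, and none was at 0 in all 6 aged Tprog libraries. A mean under 20 normalized reads in aged Tprog was found at 344 members, where the pseudocount of 1 can shrink the fitted difference and a library at 0 can shift it. Among lists of other cell types, myeloid marker genes had a mean level per region of 163 to 194 in aged Tprog (median 175) and 202 to 224 in aged Tterm (median 213). Of their 21 regions, 9 were called higher and 4 lower (background 19% and 16.9%). The start site peak of the myeloid gene Itgam was near 0 change, at 15.7 in aged Tprog and 14.3 in aged Tterm. The regions near melanoma genes went the other way (4 higher, 13 lower of 41), as did those near NK genes (2 and 11 of 29), near B cell genes 3 were higher and 5 lower of 14, and near CD4 and regulatory T cell genes 3 and 2 of 14. No member lay at a gene of these lists, and their part in the members' difference was not tested.

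Granzymes, serine proteases of cytotoxic granules, held the most open of these regions relative to progenitors. At the Gzmf start site (chr14:56210967-56211902) aged Tprog libraries had 0 to 15.9 normalized reads (median 3.82) and aged Tterm 59.9 to 181 (median 99.9). All 6 terminal libraries were above all 6 progenitor libraries, and the difference was 4.54 ± 0.30 (SE), adjusted p 8.56e-25. At the Gzmd start site (chr14:56132391-56133267) the aged values were 0 to 18.6 (median 6.6) in Tprog and 68.5 to 143 (median 107) in Tterm, a difference of 4.05 ± 0.30, adjusted p 6.45e-22. The groups did not overlap there either.

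A Gzmn region inside the gene (chr14:56168006-56168699) had 0 to 7.98 in aged Tprog (median 3.71) and 30.3 to 75.1 in aged Tterm (median 55.9), with a difference of 3.69 ± 0.36. Gzme at its start site (chr14:56120101-56121340) had 17.3 to 61.1 (median 38.6) and 168 to 303 (median 206), a difference of 2.67 ± 0.15. Gzmc at its start site (chr14:56234361-56235285) had 27.0 to 89.5 (median 50.7) and 79.2 to 178 (median 127), a difference of 1.38 ± 0.18. Gzmf, Gzmd, Gzmn and Gzme separated fully, while the lowest Gzmc value in Tterm was inside the range of Tprog.

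These regions lie in 1 stretch of chromosome 14. Within chr14:55913161-56569532, a span of 656371 bp, 12 of 31 regions were members. In aged Tterm 24 of 31 were called higher and 0 lower (background 19% and 16.9%). The stretch was picked for its number of members and cut at members, of which 94.6% were called over the whole set. These counts are therefore a description. The members there ran from 0.37 to 4.54 with a median of 2.56. Next to the granzymes lie Mcpt8, a protease gene, at 2.85 and Ctsg, which encodes cathepsin G, at 0.84 (adjusted p 0.0307). A strong region of Gzmf that is no member (chr14:56203980-56206073, mean 165) differed by 0.80, much less than the start site region beside it.

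**Figure D3:**
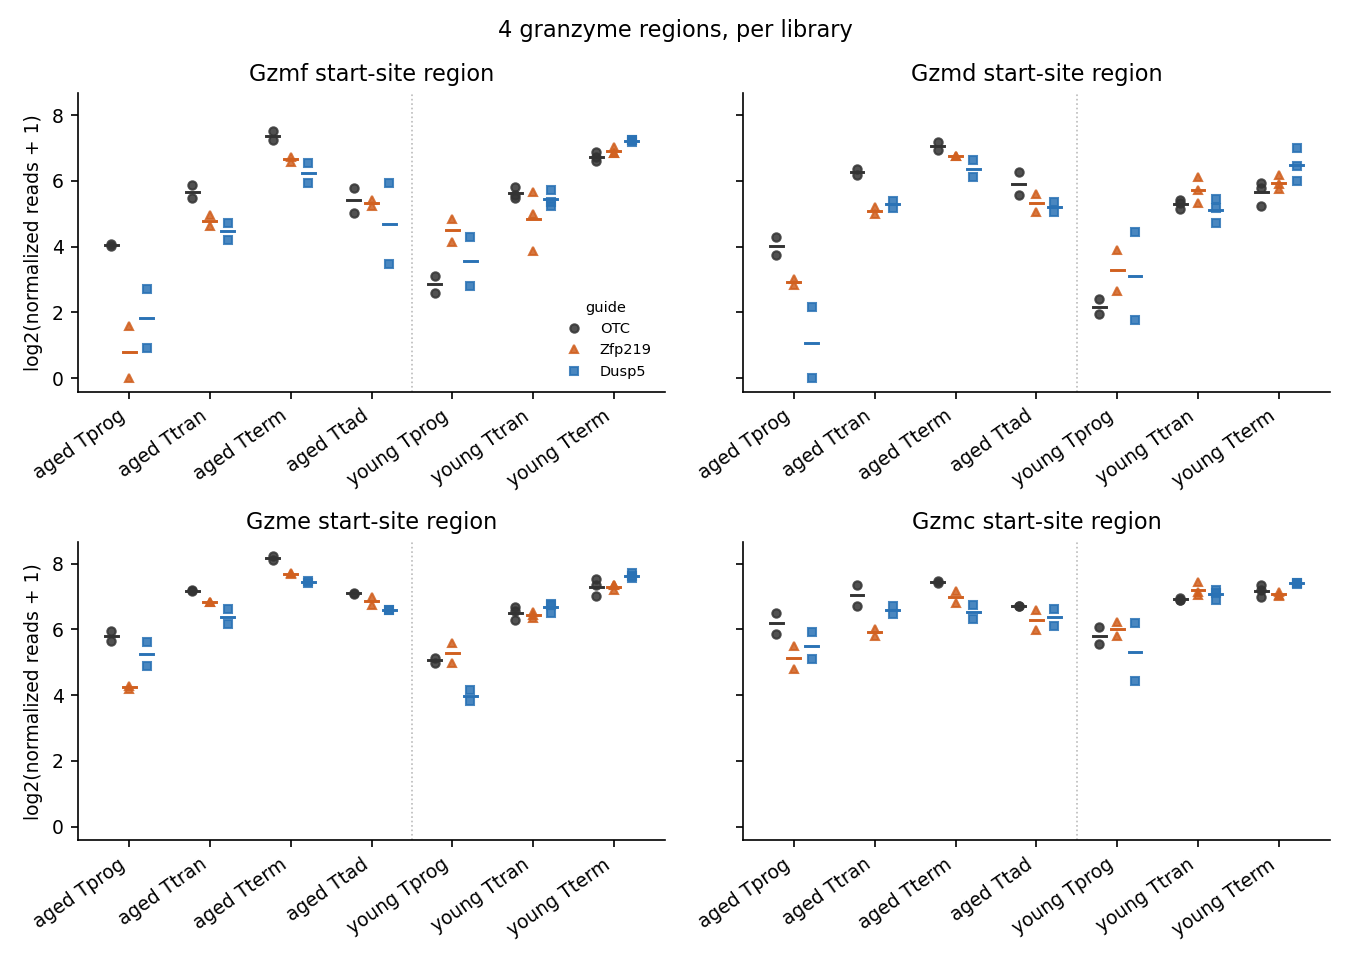
Accessibility in log2(normalized reads + 1) at the start-site regions of Gzmf, Gzmd, Gzme and Gzmc in each aged and young library, by sorted state; each point is 1 library and the symbols mark the guide. Every aged Tterm point is above every aged Tprog point at Gzmf, Gzmd and Gzme, with some Ttad points inside the Tterm range at Gzmf (up to 60.1) and Gzmd (up to 75.5), while at Gzmc the lowest Tterm value (79.2) is below the highest Tprog value (89.5).

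Perforin, which lets granzymes into target cells, had 2 members. The stronger one (chr10:61285743-61286629), outside the Prf1 body, had 34.8 to 71.8 (median 56.2) in aged Tprog and 124 to 169 (median 138) in aged Tterm, a difference of 1.34 ± 0.18. The groups did not overlap. The list of cytotoxic granule and ligand genes held 60 regions in all, of which 7 were members (over all regions 746 of 53868). In this list 35 were called higher and 3 lower in aged Tterm than in Tprog (background 19% and 16.9%).

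Among transcription factors, the strongest member lay 34571 bp from the Irf8 body (chr8:120791265-120792238). Irf8 encodes an interferon regulatory factor. The aged Tprog libraries had 168 to 265 normalized reads (median 178) and aged Tterm 530 to 772 (median 687). They did not overlap, and the difference was 1.75 ± 0.09 (adjusted p 4.85e-30). Rbpj, the DNA-binding factor of Notch signalling, had 2 members at 1.58 ± 0.30 and 1.65 ± 0.34. Nfatc1, a factor activated by calcium signalling, was at 1.26 ± 0.35 and Zeb2, a repressor active in effector cells, at 1.28 ± 0.36, both on few reads (means of 28.2 and 22.6). Of 405 regions at the listed exhaustion and effector factors, 5 were members, near the share over all regions (746 of 53868). In this list 138 were called higher and 80 lower (background 19% and 16.9%).

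Inhibitory and related receptors gave 3 members. Cd244a, the receptor 2B4 of the SLAM family, had 2 adjoining ones, and the stronger (chr1:171559903-171561514, in the gene body) had 64.0 to 94.0 (median 81.7) in aged Tprog and 171 to 223 (median 200) in aged Tterm, a difference of 1.32 ± 0.13. The other one covers the printed start site sequence and was at 1.49 ± 0.14. Entpd1, which encodes the ectonucleotidase CD39, had 10.2 to 61.1 (median 24.9) and 55.6 to 194 (median 89.2) at chr19:40665839-40666251, a difference of 1.98 ± 0.20. The Cd244a groups were apart, and at Entpd1 the lowest Tterm library fell just below the highest Tprog library. Of 78 regions in this list 29 were called higher and 12 lower (background 19% and 16.9%).

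Cytokine genes added 5 members, 3 near Ifng and 2 near Csf1. The region 36271 bp from Ifng, the gene of interferon gamma (chr10:118482165-118482957), had 53.8 to 69.1 (median 61.2) in aged Tprog and 184 to 331 (median 282) in aged Tterm, with a difference of 2.15 ± 0.14. The other Ifng members were at 1.42 ± 0.21 and 0.95 ± 0.26. At Csf1, which encodes a growth factor of macrophages, the stronger member (chr3:107739528-107740526) had 15.6 to 42.6 (median 36.1) and 90.9 to 124 (median 104), a difference of 1.70 ± 0.18. Both genes' strongest regions separated without overlap. Of 149 regions in the chemokine and cytokine list, 85 were called higher and 17 lower (background 19% and 16.9%).

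Adhesion and residency genes held 3 members among 116 regions, and progenitor and memory genes 3 among 213, against 746 of 53868 over all regions. The Adgrg1 start site (chr8:94983707-94985337), of an adhesion receptor found on cytotoxic lymphocytes, had 206 to 262 (median 229) in aged Tprog and 482 to 641 (median 538) in aged Tterm, a difference of 1.27 ± 0.08. Klrg1, a receptor of effector cells, had members at 2.40 ± 0.33 and 1.18 ± 0.20. A region 8855 bp from Myb (chr10:21115176-21116075), a factor that progenitor cells need, had 82.3 to 132 (median 109) in Tprog and 359 to 640 (median 478) in Tterm, a difference of 2.14 ± 0.11, although Myb was placed in the progenitor and memory list. Cd28, a costimulatory receptor, had a weak member 87561 bp away at 1.05 ± 0.35 (adjusted p 0.0110), a call lost without Dusp5 Tprog replicate 1, OTC Tterm replicate 2, Zfp219 Tprog replicate 1 or Zfp219 Tterm replicate 1, with a range of 0.65 to 1.45 over all settings. Thy1, a T cell surface protein, had 1 member at 1.93 ± 0.31. None of the 183 regions at genes that brake signalling was a member. Of those 183, 73 were called higher and 21 lower (background 19% and 16.9%).

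Outside these lists, the highest aged differences fell at genes of varied function. At Gsap, which encodes an activator of gamma-secretase (chr5:21246793-21247218), aged Tprog had 8.97 to 21 normalized reads (median 18.2) and aged Tterm 133 to 219 (median 183), a difference of 3.45 ± 0.19 (adjusted p 8.50e-30). At Hdac8, a histone deacetylase gene (chrX:102382987-102384218), the values were 3.5 to 22.2 (median 9.65) and 79.3 to 140 (median 101), a difference of 3.28 ± 0.22. At Eya2, which encodes a phosphatase and coactivator (chr2:165694913-165695395), they were 0 to 4.44 (median 2.94) and 14.2 to 51.3 (median 33.8), a difference of 3.33 ± 0.38. The 3 pairs of groups were far apart. Fech, the last enzyme of haem synthesis, was at 3.36 ± 0.39, Map6 and Map7, both microtubule-associated proteins, at 3.31 ± 0.34 and 2.99 ± 0.29, and a region 40882 bp from Fam241b at 3.20 ± 0.27.

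At the other end, 40 members were not called and 3 had an aged difference under 0. The lowest lay in Map3k5, a stress kinase gene (chr10:20076901-20077681), where aged Tprog had 4.27 to 15.2 (median 11.3) and aged Tterm 0 to 31.9 (median 16). The groups overlapped, and the difference was -0.54 ± 0.39 (adjusted p 0.300). Its sign is not fixed, since the mean was higher in Tterm (14.6 against 11.1) and the difference was 0.02 with a pseudocount of 8, 0.24 by edgeR, 0.14 without Dusp5 Tterm replicate 2 and 0.13 without OTC Tterm replicate 1. In young Tterm the same region had 52.6 to 111 (median 89.4). The others were a region of chromosome 14 with no gene within 100 kb (chr14:71309052-71309667) at -0.47, a region near Rtn4rl1 at -0.22, one in Farp1 at 0.03 and one on chromosome 4 with no gene within 100 kb (chr4:124484774-124485197) at 0.09. None of the 5 had an aged Tterm median above 23.3 normalized reads.

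**Figure D4:**
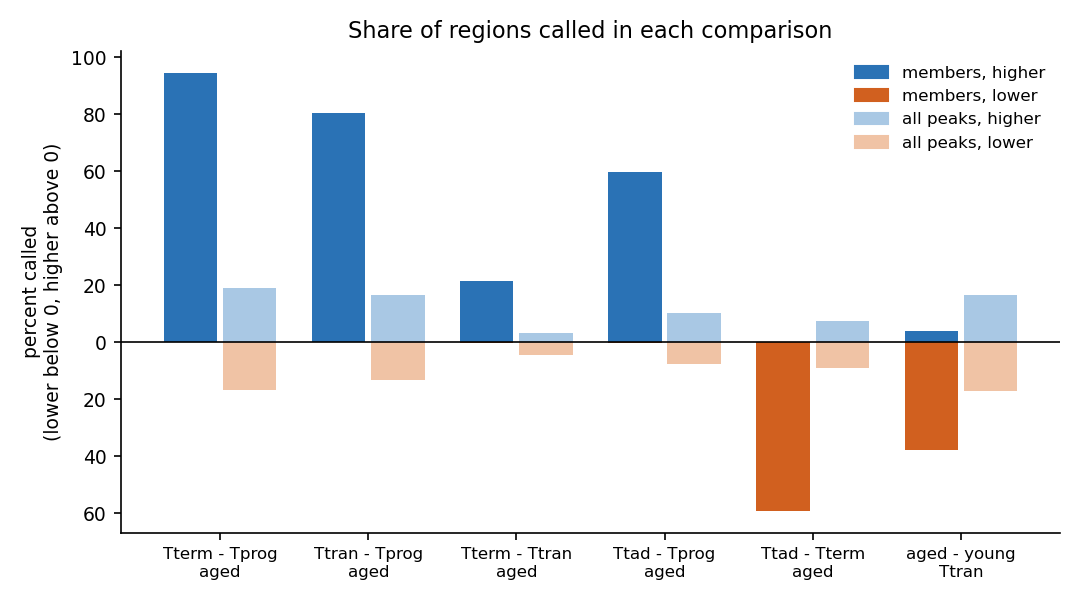
Percent of the 746 members (dark bars) and of all 53868 regions (pale bars) called higher (above 0, blue) or lower (below 0, orange) in 5 comparisons between aged states and in aged against young Ttran. The share of members called higher is above the background in Tterm against Tprog (94.6% against 19%). The share called lower is above the background in aged against young Ttran (37.9% against 17.1%).

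The intermediate Ttran state had most of the difference between Tprog and Tterm. All libraries are from day 15, so an order in time was not measured. Against aged Tprog, 601 members were higher and 0 lower (80.6%, background 16.6% higher and 13.2% lower), with a median of 1.16, and 432 members (57.9%, background 9.45%) did not overlap in any guide. The count of 0 lower stayed at 0 at an unadjusted p under 0.05 in limma and among edgeR's calls. In the mean over members, Ttran stood at 75.5% of the Tprog to Tterm difference in aged OTC, 71.8% in Zfp219 and 77.3% in Dusp5. In young libraries the shares were 81.5%, 80.5% and 75.8%, whose end points are the libraries that chose the members.

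Against aged Ttran, 161 members were higher in Tterm and 1 lower (21.6% higher, background 3.35% higher and 4.36% lower), with a median of 0.37. A stepwise pattern, higher in Ttran than Tprog and again in Tterm than Ttran, was called at 141 members (18.9%, background 1.39%). Another 460 (61.7%, background 14.6%) were called higher in Ttran than Tprog with no call between Tterm and Ttran. At 110 members (14.7%, background 5.40%) Tterm but not Ttran was called above Tprog, a count that does not test whether Ttran and Tterm differ. At Eya2 the Ttran median was well below that of Tterm, with 3.19 to 17.9 (median 10.5) in aged Ttran against 14.2 to 51.3 (median 33.8) in Tterm. At Gsap the aged Ttran libraries were near Tterm, with 131 to 174 (median 136), inside or just below the Tterm range of 133 to 219. Gzmf had 17.6 to 57.4 (median 27.9) in Ttran, below every Tterm library.

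Ttad cells, negative for both sort markers and sorted only from aged hosts here, had the members partly open. Against aged Tprog 446 members were higher and 2 lower (59.8%, background 10.3% higher and 7.83% lower), with a median of 0.77. Against aged Tterm 442 were lower and 0 higher (59.2%, background 9.06% lower and 7.40% higher), with a median of -0.76, and limma at an unadjusted p under 0.05 and edgeR also had 0 higher. No overlap in any guide was seen at 244 members for Ttad above Tprog (32.7%, background 5.35%) and at 345 for Tterm above Ttad (46.2%, background 5.59%). The 2 comparisons share the Ttad libraries. The mean over members put Ttad at 41.7% of the Tprog to Tterm difference with OTC, 54.0% with Zfp219 and 51.7% with Dusp5.

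A level strictly between, called above Tprog and below Tterm, was found at 290 members (38.9%, background 3.79%). Another 156 members (20.9%, background 6.22%) were above Tprog with no call against Tterm, 150 (20.1%, background 4.86%) were below Tterm with no call against Tprog, and 148 (19.8%, background 72.1%) had neither call. Gzmf and Gzmd were among the strictly intermediate ones, with Ttad medians of 39.1 (highest 60.1) and 43.5 (range 32.2 to 75.5). At Foxred2, a gene of a protein of the endoplasmic reticulum, Ttad had 33.4 to 109 (median 70.1), a spread that covers the Tterm range of 65.3 to 95.3, and exceeded Tprog by 2.46 ± 0.26. Cd244a was also near Tterm, at 148 to 213 (median 177), with a Ttad minus Tterm difference of -0.16 ± 0.13 (adjusted p 0.444). Eya2 (2.35) and a region near 1700018B08Rik (2.32) completed the 5 largest rises of Ttad over Tprog.

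Other members were far less open in Ttad than in Tterm. The Gzmn region had 3.34 to 29.6 (median 5.49) in Ttad and fell by 2.82 on the log2 scale from Tterm, and its difference from Tprog was 0.87 ± 0.36 (adjusted p 0.0778). Near Col18a1, a collagen gene, Ttad had 2.56 to 26.7 (median 9.06) against 29.3 to 65.4 (median 42.7) in Tterm, a difference of -2.16 ± 0.37. A region near Slc36a2, a transporter gene, was at -2.07 ± 0.35 and a region in Paox, a polyamine oxidase gene, at -1.98 ± 0.41. The 2 members below Tprog were in Hecw2, at -0.96 ± 0.34 (adjusted p 0.0324), and in Rora, a nuclear receptor gene, at -1.23 ± 0.35 (adjusted p 0.00616). Called below both Tprog and Tterm in Ttad were 0.268% of members (background 0.401%), and the Hecw2 call against Tprog was lost in 9 of 19 settings, with differences of -1.50 to -0.43.

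With the Zfp219 guide single members changed in both directions relative to OTC. All comparisons of Zfp219 and of Dusp5 use the same OTC libraries. In aged Ttad, 56 members were higher and 6 lower with Zfp219 than with OTC (7.51% and 0.804%, background 3.66% and 4.56%), with a median of 0.15 against 0.00 over all regions. Of these 62 calls, 27 were kept without OTC Ttad replicate 1, 34 without Zfp219 Ttad replicate 1, 26 without Zfp219 Ttad replicate 2 and 33 with the compared groups fitted alone, and the totals there, new calls included, were 39, 36, 29 and 35. Averaged over the 4 aged states, 103 were higher and 86 lower (13.8% and 11.5%, background 12.1% and 13.7%), near the background in each direction.

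By single state, Zfp219 minus OTC gave 32 members higher and 20 lower in aged Tprog (4.29% and 2.68%, background 1.11% and 1.45%). In aged Ttran it gave 27 and 52 (3.62% and 6.97%, background 5.92% and 8.29%). For aged Tterm the counts were 4 and 4 (0.536% each, background 1.06% and 2.51%). The aged Ttran and Tterm shares were thus under the background in both directions. In young Ttran it gave 13 and 12 (1.74% and 1.61%, background 1.65% and 4.23%). The totals moved with 1 library left out, to 25 without OTC Tprog replicate 1 and 30 without Zfp219 Tprog replicate 1 in Tprog. In Ttran they were 47 and 41 without OTC replicates 1 and 2 and 33 and 36 without Zfp219 replicates 1 and 2. In Tterm they were 1 and 4 without OTC replicates 1 and 2 and 1 and 2 without Zfp219 replicates 1 and 2, and in young Ttran 15, 14 and 15 without OTC replicates 1, 2 and 3 and 28 without Zfp219 replicate 2. Fitting the compared groups alone gave 14 in Tprog, 56 in Tterm and 10 in young Ttran, quality weights gave 21 in Tterm and 13 in young Ttran, and edgeR gave 32 in Tprog and 13 in Tterm.

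A member over the Zfp652 start site (chr11:95747975-95749126), a zinc finger gene, had 75.5 and 80.1 normalized reads in aged OTC Ttad, 283 and 240 with Zfp219, and 108 and 110 with Dusp5. The Zfp219 pair stood above all other Ttad libraries, and the Zfp219 minus OTC difference in Ttad was 1.73 ± 0.17 (adjusted p 2.44e-12), against 0.38 in Tprog, 0.48 in Ttran and 0.31 in Tterm. Snx29, a sorting nexin gene (chr16:11425992-11426356), had 15.1 and 2.46 with OTC and 66.1 and 69.1 with Zfp219 in Ttad, a difference of 3.20 ± 0.43. Lcn12, of the lipocalin family, had 6.71 and 0 against 34.8 and 22.2, a difference of 3.37 ± 0.62 whose call was lost without OTC Ttad replicate 2. Snx32, another sorting nexin gene, had 2 reads in the OTC Ttad libraries together and 44 with Zfp219, a ratio of 13.2 with a 95% exact counting interval of 3.44 to 112.

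Lower with Zfp219 in Ttad were members in Ccn5 (233 and 249 with OTC, 120 and 129 with Zfp219, a difference of -0.95 ± 0.22), Cux2 (265 and 254 against 149 and 147, -0.80 ± 0.19) and Vash1 (111 and 89.9 against 43.2 and 47.7, -1.12 ± 0.36). Each of these pairs was apart, and the Vash1 call was lost when any 1 of its 4 libraries was left out. Cux2, a homeobox factor gene, was also lower in aged Tterm, at 318 and 386 with OTC against 178 and 178 with Zfp219, a difference of -0.97 ± 0.19 (adjusted p 3.97e-04). In Tterm, Entpd1 had 55.6 and 95.3 with OTC and 155 and 194 with Zfp219, a difference of 1.24 ± 0.35 (adjusted p 0.0269). That call was lost without OTC Tterm replicate 1 or without either Zfp219 replicate, as were the calls of Zbtb38 (1.15), while Map3k5 (2.80) lost its call without OTC or Zfp219 Tterm replicate 1. The Map3k5 value ran from 0.78 to 4.83 over the settings, with OTC libraries at 0 and 15.6 normalized reads. Aopep (-1.41) and Cmip (-0.99) lost theirs without any 1 of the 4 libraries.

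The Dusp5 guide gave fewer calls in aged Tprog, Ttran and Ttad. As shares of members, higher and lower, its calls were 2.01% and 1.74% in aged Ttad and 0.268% and 3.35% in aged Tprog. In aged Ttran they were 0.670% and 2.28%, and in aged Tterm 0.670% and 0.804%. The aged Ttran and Tterm shares were under the background given below. Over the 4 aged states the shares were 5.23% and 9.79%, and in young Ttran 0% and 0.268%. In aged Ttad, 15 members were higher and 13 lower than with OTC (background 1.21% and 1.67%), and the total was 18 without Dusp5 Ttad replicate 2, 14 without OTC Ttad replicate 1 and 36 without OTC Ttad replicate 2. With the compared groups fitted alone 0 of these 28 were called, and quality weights gave 12 and edgeR 17. In aged Tprog 2 were higher and 25 lower (background 0.178% and 0.652%), with totals of 14 without Dusp5 replicate 1, 9 without OTC replicate 1, 15 without OTC replicate 2 and 2 with the compared groups alone. In aged Ttran 5 were higher and 17 lower (background 1.36% and 2.44%), with 8 and 7 without Dusp5 replicates 1 and 2. In aged Tterm 5 were higher and 6 lower (background 1.55% and 2.56%), with 17 and 0 without Dusp5 replicates 1 and 2 and 2 and 0 without OTC replicates 1 and 2. Over the 4 aged states 39 were higher and 73 lower (background 4.35% and 7.87%), and in young Ttran 0 were higher and 2 lower (background 0.293% and 0.353%), where limma had 30 higher and 32 lower at an unadjusted p under 0.05 and edgeR called 0 and 6.

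The largest Dusp5 effects rested on few reads. Near Cfap97d2, OTC Ttad libraries had 20.1 and 25.9 normalized reads and Dusp5 2.93 and 0, or 33 reads against 2, a ratio of 15 with a 95% exact counting interval of 3.84 to 129. Snx32 went the other way, with 19 reads against 2 in OTC, a ratio of 10.4 (interval 2.52 to 92.5). A second member assigned to Zfp652 (chr11:95777280-95778278), outside the gene body, had 67.1 and 40.7 in OTC Ttad and 23.4 and 15 with Dusp5, a difference of -1.43 ± 0.32 (adjusted p 0.00433), a call lost without Dusp5 replicate 2 or OTC replicate 1. With the compared groups fitted alone, the Cfap97d2, Snx32 and Zfp652 calls were all lost, and Snx32 also lost its call without OTC replicate 1. In Tterm, the region near Ppcdc, an enzyme gene of coenzyme A synthesis, had 240 and 312 with OTC and 160 and 117 with Dusp5, a difference of -0.99 ± 0.26, a call lost without Dusp5 or OTC replicate 2. The other named Tterm calls, near Cd300a (-2.34), Vegfa (-1.85), Tbc1d15 (2.02), Adra2c (1.74) and Bmt2 (1.63), were each lost without at least 3 of the 4 libraries in turn.

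Whether a guide effect in aged Ttad differed from its mean in the other 3 aged states was tested directly. For Zfp219, 3 members were called, all higher in Ttad (background 0.0353% higher and 0.0167% lower), with Zfp652 first at 1.34 ± 0.20. For Dusp5, 4 were called, 3 higher and 1 lower (background 0.119% and 0.0501%).

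Host age was compared in Ttran, a state the difference rule did not use. There 283 members were lower and 30 higher in aged than in young hosts (37.9% and 4.02%, background 17.1% and 16.6%), with a median of -0.37 against 0.02 over all regions. The 3 guides each leaned the same way, with 125 lower in OTC (background 9.58%), 112 in Zfp219 (background 6.47%) and 114 in Dusp5 (background 7.25%). All aged were below all young Ttran libraries of each guide at 97 members (13%, background 5.10%), and above at 5 (0.670%, background 3.93%). Of the 1426 regions that a mirrored rule takes as open in young Tprog, 579 were higher and 70 lower, with a median of 0.39. The mirrored set was also chosen on young values and leaned the opposite way. Whether young Ttran pools share mice with the young Tterm and Tprog pools that chose the members is not stated, so a lean brought in by the choice and a difference of age cannot be told apart. In the column headers the aged and the young libraries each have their own run of sample numbers. Anything that differed between those runs goes with age and cannot be told apart from it either. In Ttran, young libraries were deeper than aged ones for OTC (12629361 to 29942755 against 8547780 to 9060635 reads in peaks). They were shallower for Zfp219 (6589023 to 7952298 against 12793436 to 16034483). For Dusp5 the young range took in the aged one (7809388 to 20077793 against 11783429 to 14913637). The part of depth in the age difference was not tested.

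**Figure D5:**
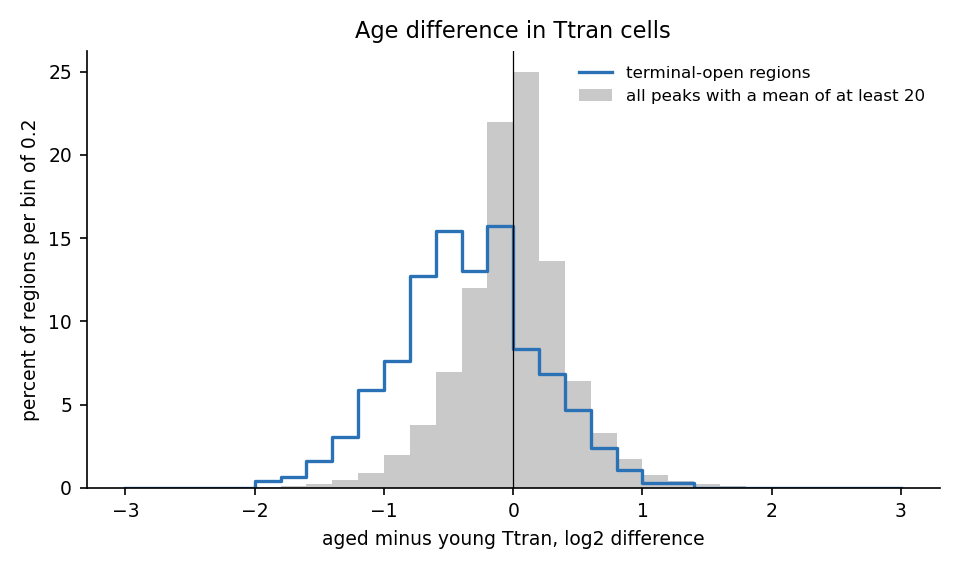
Distribution of the aged minus young difference in Ttran, in log2(value + 1) and averaged over 3 guides, for the members (line) and for all regions with a mean of at least 20 (grey), as a percent of each in bins of 0.2. The members' distribution is shifted to the left, with a median of -0.37 against 0.01.

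As a description, the members' mean in Tterm was lower in aged than in young libraries by 0.29 (OTC), 0.33 (Zfp219) and 0.44 (Dusp5) on the log2 scale, and in Tprog by 0.03, 0.01 and 0.10. These young values chose the members. The largest fall in Ttran was near Opa1, a gene of mitochondrial fusion (chr16:29565831-29566772), with 31.8 to 61.2 (median 50.9) in 9 young libraries and 5.1 to 17.9 (median 12.6) in 6 aged ones, a difference of -1.91 ± 0.28 (adjusted p 4.69e-08). The ages did not overlap. Paox (-1.85), Pbx4 (-1.83), Sbno1 (-1.76) and Atrx, a chromatin remodeller gene (-1.75), followed. Of the 5 members whose aged libraries were above the young ones in each guide, the highest was near Cxcl17, a chemokine gene (chr7:25432964-25433510), where young Ttran had 20.2 to 47.4 (median 41.2) and aged 78.3 to 102 (median 90.7), a rise of 1.29 ± 0.24, and the others were Tpra1 (0.97), Arf2 (0.84), Pstpip1 (0.66) and C5ar1, a complement receptor gene (0.63). Among members outside those 5, a region of Filip1 rose by 1.24, named after its value was seen.

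Among members described above, the age difference in Ttran went both ways. Averaged over the guides, Entpd1 fell by 1.10 and Csf1 by 0.73 on the log2 scale, and Gzmc by 0.54. The Entpd1 fall was uneven among guides. Aged against young Ttran had 51.1 and 36.7 against 100 to 118 with OTC. With Dusp5 the values were 41.1 and 47.5 against 108 to 171. With Zfp219 they were 140 and 115 against 134 to 200, which overlap. Whether the guides differ in this was not tested. Irf8 (0.39), Myb (0.38) and Adgrg1 (0.30) rose. Gzmf at -0.32 ± 0.27 (adjusted p 0.374) and Ifng at -0.13 ± 0.12 (adjusted p 0.449) were not called.

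The members lay away from promoters more than other regions did. A start site window was overlapped by 4.25% of them against 22.1% of regions past the minimum on the mean, and the start site was over 10000 bp away for 71.9% against 53.6%. Inside a gene body were 57.0% against 65.3%. The median distance to a start site was 21482 bp against 11734 bp, and the median width 708 bp against 987 bp. The members were also weaker than the comparison set (median 49.2 against 126), and the part of peak strength in these shares was not tested. Chromosome 8 held 6.97% of members against 4.65% of regions, and chromosome X 0.804% against 2.10%.

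The members were assigned to 572 genes, 477 of them with 1 member and 24 with at least 3. D430041D05Rik had 6, of which 5 were called higher in aged Tterm, and Foxl1 and Zcchc14 had 5 each, all called. Within 25 kb of another member were 194 (26.0%). Stretches were picked for their number of members, so their counts are a description. The densest megabase was chr8:120791265-121698206, with 15 members of 58 regions, from the Irf8 region above through Foxl1 to Zcchc14. There 27 regions were called higher and 1 lower in aged Tterm (background 19% and 16.9%). In chr2:164930897-165853524 there were 9 members of 49 regions, 4 of them in Eya2.

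Assignment to the nearest gene body hides neighbours, and members within 100 kb of a listed gene were looked up after the data were seen. The 4 members assigned to Atg5 (chr10:44360696-44369020) lay 68154 to 76011 bp from Prdm1, which encodes the repressor Blimp-1, and differed by 2.25 to 2.69 in aged cells. Near Bhlhe40, a factor gene of effector and resident cells, a member assigned to Arl8b lay 61770 bp away at 2.52 ± 0.30. A member 66627 bp from Nr4a2, an orphan nuclear receptor gene, was at 2.44 ± 0.25, and 5 members within 100 kb of Nfil3 ran from 0.99 to 2.07. Members assigned to Ccl9 (2.36 and 1.87) and Ccl6 (2.64) lay within 100 kb of Ccl3, Ccl4 and Ccl5, chemokine genes of effector T cells. A member 79238 bp from the targeted gene Dusp5 was at 2.07 ± 0.14. All of these were called higher in aged Tterm than in aged Tprog, as were 94.6% of all members, and they were picked from those looked up. Among the others, members near Serpinb9 (0.83) and Rgs1 (0.75) differed less. A member 85445 bp from Fosb was not called (0.40, limma adjusted p 0.425). Which gene each region acts on was not measured.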

How the data were processed

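Groups came from the sample titles. Per the file headers, the authors deposited 1 table of normalized signal, with 53868 peaks as rows and 48 libraries as columns. Dividing each column by its smallest step gave whole reads for 100% of values (tolerance 0.01 reads), so the signal is reads over a factor of the library. The submitters' processing notes name mm10, Bowtie2 2.2.9, Picard 2.8.0, MACS2 2.1.1, SAMtools 1.3.1 and DESeq2 1.28.1, with no role given. Handling of reads that fit several places is not given in the sources used here.

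Each peak was assigned to the gene body it overlapped, or the nearest within 100 kb (RefSeq, GRCm38.p6). Tests used limma 3.58.1 (R 4.3.3; lmFit, eBayes with trend) on log2(value + 1) with all 48 libraries in 21 groups, and Benjamini-Hochberg adjustment over 53868 peaks. The threshold for a call was an adjusted p of 0.05. Differences at weak peaks are uncertain on this scale. The pseudocount can shrink them, and a library at 0 can shift them or turn their sign, as at Map3k5 (-0.54, against 0.24 by edgeR). Scripts were tested on simulated data.

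Alternatives were a pseudocount of 8, leaving out the weakest 25% of peaks, median of ratios, quantile normalization, library quality weights, a replicate block, the compared groups only, each library left out, edgeR 4.0.16 on whole reads with TMM, and other thresholds in the rule. Named regions are the 10 highest and 5 lowest aged Tterm minus Tprog differences, the strongest member of each listed gene, the largest changes of Ttad, guide and age (where groups did not overlap for guide and age), the members beside the thresholds, the genes with the most members, and every call of the guide effect in Ttad against other states. Members and gene lists were chosen with earlier results of these data known. Counting intervals cover counting error only, as reads are not independent molecules. The sequences searched and printed are RefSeq promoter windows; the bases of whole peaks were not used here.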

Additional observations from a re-analysis of the deposited data

Results flagged for a closer look

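In 3 members the Zfp219 minus OTC difference was larger in aged Ttad than in the mean of the other 3 aged states, by a test of that difference itself (limma interaction). At the Zfp652 start site the excess was 1.34 ± 0.20 (adjusted p 3.44e-05), and the call held in all 24 alternative settings. In Gfra1, a receptor gene, the excess was 3.53 ± 0.77 (adjusted p 0.0401), on 40 reads with Zfp219 against 3 with OTC in Ttad, a ratio of 7.98 (95% exact counting interval 2.54 to 40.3), and 12 of 23 settings lost it. Near Nsmce1, a gene of a DNA repair complex, the excess was 1.67 ± 0.37 (adjusted p 0.0401), and 14 of 24 settings lost it. Nsmce1 had 35.2 and 35.7 normalized reads in OTC Ttad and 82.2 and 95.5 with Zfp219. In aged Tprog it was lower with Zfp219 (7.11 and 16.2, against 22.6 and 45.2 with OTC), which adds to the excess. In aged Ttran it had 55.7 and 94.1 with OTC and 70.4 and 71.8 with Zfp219. The aged Tterm values were 98.1 and 85.2 with OTC and 139 and 106 with Zfp219.

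For Dusp5 minus OTC the same test called 4 members. They were Snx32 at 3.29 ± 0.69 (adjusted p 0.0169), Primpol, a primase gene, at 3.36 ± 0.73 (adjusted p 0.0204), Hdac8 at 1.98 ± 0.44 (adjusted p 0.0251) and Cfap97d2 at -3.64 ± 0.70 (adjusted p 0.00605). The calls were lost in 6 of 23 settings for Snx32, 6 of 23 for Primpol, 7 of 24 for Hdac8 and 5 of 23 for Cfap97d2, and edgeR called none of the 4. Hdac8 had 18.4 and 24.6 normalized reads in OTC Ttad and 38.1 and 46.8 with Dusp5, while in aged Tprog it was at -1.99 (Dusp5 minus OTC, log2 scale).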

How the results depend on the processing

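Of 349 alternative values of the counts, 278 stayed within 1.5 times and 71 moved, all 71 in guide comparisons. Leaving out 1 library gave 677 to 692 calls for aged Tterm minus Tprog, 572 to 583 for Ttran minus Tprog, 112 to 145 for Tterm minus Ttran, 407 to 436 for Ttad minus Tprog, 399 to 421 for Ttad minus Tterm and 264 to 311 for age in Ttran. For Zfp219 it gave 25 to 41 (Tprog), 33 to 47 (Ttran), 1 to 4 (Tterm), 29 to 50 (Ttad), 156 to 187 (mean), 14 to 28 (young Ttran) and 1 to 12 (Ttad against other states), and for Dusp5 9 to 24, 7 to 17, 0 to 17, 14 to 36, 87 to 109, 2 to 3 and 2 to 13. Fitting the compared groups only gave Zfp219 counts of 14 (Tprog), 56 (Tterm), 35 (Ttad), 10 (young Ttran) and 1 (Ttad against others), and Dusp5 counts of 2 (Tprog), 12 (Ttran), 0 (Ttad), 6 (young Ttran) and 0 (Ttad against others). Quality weights gave Zfp219 21 (Tterm), 13 (young Ttran) and 6 (Ttad against others), and Dusp5 41 (Tprog), 11 (Ttran), 6 (Tterm), 12 (Ttad), 4 (young Ttran) and 0 (Ttad against others). edgeR gave Zfp219 32 (Tprog) and 13 (Tterm), and Dusp5 12 (Tprog), 17 (Ttad), 6 (young Ttran) and 0 (Ttad against others). A pseudocount of 8 gave Zfp219 1 (Ttad against others), and Dusp5 9 (Tprog), 4 (young Ttran) and 0 (Ttad against others). Without the weakest 25% of peaks Dusp5 had 4 (young Ttran) and 1 (Ttad against others), and quantile normalization gave 6 (Dusp5 Tterm). The cause was not tested.

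The replicate block gave 707 calls for aged Tterm minus Tprog and 244 for age in Ttran, and no count moved past 1.5 times. Same-numbered libraries did not deviate together across regions (r from -0.017 to 0.018), and the main tests did not treat them as pairs. Counting error enters each deviation, so the check cannot show whether same-numbered pools share mice. With young OTC alone in the rule, 699 of 792 members (88.3%) were called in aged Tterm minus Tprog, and with the minimum on the 24 young libraries, an alternative chosen after seeing the data, 742 of 798 (93.0%).

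Reversed values were all of uncalled members in aged Tterm minus Tprog. Map3k5 was 0.02 (pseudocount 8), 0.24 (edgeR), 0.14 (without Dusp5 Tterm replicate 2) and 0.13 (without OTC Tterm replicate 1), with a range of -1.23 to 0.14 over single libraries left out. Rtn4rl1 was 0.07 (pseudocount 8), 0.03 (quantile), 0.45 (edgeR) and 0.66 (without Dusp5 Tterm replicate 2), with a range of -1.09 to 0.66. Farp1 was -0.03 (edgeR) and -0.19, -0.01, -0.10, -0.04 and -0.01 with 1 library left out (range -0.19 to 0.26). The chromosome 4 region at 124484774 was -0.01, -0.21, -0.00 and -0.14 with 1 library left out (range -0.21 to 0.38). In aged Tprog 344 members had under 20 normalized reads, where counting error is largest.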
